A study of Mus musculus with 5 samples.

Results

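The miR-378 arms are the pair of mature microRNAs cut from one hairpin, and they were represented on the array by 2 probes, mmu-miR-378 and mmu-miR-378*, out of 598 probes that name a mouse microRNA. The members were taken by name: every row of the deposited matrix called mmu-miR-378 or mmu-miR-378*. No other probe carried a name of this family. In the present nomenclature miR-378 is the 3′ arm and miR-378* the 5′ arm of the hairpin encoded by Mir378a, which in the RefSeq annotation of mouse assembly GRCm38.p6 lies inside Ppargc1b. RefSeq lists 3 further hairpins of the family, Mir378b inside Msi2, Mir378c inside Samd4 and Mir378d inside no protein-coding gene, and whether the miR-378 probe also captures their products was not tested.

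Total RNA came from 5 tissues of C57BL/6 mice at 2 to 3 months after birth: brown adipose tissue, soleus muscle, gastrocnemius muscle, inguinal adipose tissue and epididymal adipose tissue. No treatment or genetic change is given for any group, and the labels give neither sex nor the number of animals behind each RNA. Each tissue had 1 array, a miRCURY LNA array read in a single colour, on which probes holding locked nucleic acids capture mature microRNAs. Values are therefore compared between single arrays, with no test, no p-value and no replicate check within a tissue; the spread quoted is that of the 4 spots of each probe on an array and covers spot noise only.

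Ppargc1b encodes PGC-1β, a transcriptional coactivator that raises mitochondrial gene expression and fatty acid oxidation. An intronic microRNA is usually made from its host gene's transcript, and the enzyme Dicer then releases both arms of the hairpin, of which one is commonly kept in larger amount. In mice, loss of both miR-378 arms has been reported to raise oxidative metabolism and protect against diet-induced obesity, and extra miR-378 in adipose tissue to enlarge brown fat. Brown fat burns fuel to make heat, white fat, here the inguinal and epididymal depots, stores lipid, and soleus is richer in slow oxidative fibres than gastrocnemius.

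For the profiles set beside the miR-378 arms, mature sequences from RefSeq (GRCm38.p6) are given, because miR-30e* and miR-30e are among the nearest profiles of either arm, miR-193b is a near profile of miR-378* that is known to be enriched in brown fat, and the miR-22 arms had an arm ratio that went the opposite way. Capitals mark the seed, bases 2 to 8 from the 5′ end, which largely sets the targets. miR-30e*, miR-193b and miR-22 of the array are the 3p arms, and miR-30e and miR-22* the 5p arms.
mmu-miR-30e-3p: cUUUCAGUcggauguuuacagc
mmu-miR-30e-5p: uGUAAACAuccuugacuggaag
mmu-miR-193b-3p: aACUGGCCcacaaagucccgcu
mmu-miR-22-3p: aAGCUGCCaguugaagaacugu
mmu-miR-22-5p: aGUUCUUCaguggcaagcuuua
The 5 sequences hold 5 different seeds. The miR-30e arms also come from one hairpin inside a protein-coding gene, Nfyc in the same annotation.

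miR-378, the more brightly measured arm, was high on the brown fat array and on both muscle arrays and low on both white fat arrays. Its normalized intensity, in multiples of the array's median, was 15.99 on brown fat, 12.99 on soleus, 14.61 on gastrocnemius, 2.83 on inguinal fat and 4.82 on epididymal fat. The SD over its 4 spots was 1.28 on brown fat, 2.02 on soleus, 1.49 on gastrocnemius, 0.212 on inguinal fat and 0.456 on epididymal fat. Before scaling these levels were 7126.5 background-subtracted units on brown fat, 6074.5 on soleus, 5958 on gastrocnemius, 1188.5 on inguinal fat and 1909 on epididymal fat. Every miR-378 array value lay far above the floor of 50 units, at and above which a probe was counted as detected.

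The 5 levels fell into 2 sets whose spots did not overlap. From high to low the order was brown fat, gastrocnemius, soleus, epididymal fat and inguinal fat. Spots on brown fat ran from 14.9 to 17.3, on gastrocnemius from 12.3 to 15.7 and on soleus from 9.40 to 13.9, so each of these neighbours overlapped the next. Spots on epididymal fat, from 4.01 to 4.99, and on inguinal fat, from 2.59 to 3.10, did not overlap each other or any of the upper set. In whole-tissue RNA, fewer cells of a type cannot be told apart from less of the microRNA per cell.

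miR-378*, the other arm, kept the same split into 2 sets but separated brown fat from muscle. Its normalized intensity was 0.916 on brown fat, 0.447 on soleus and 0.468 on gastrocnemius, with spot SDs of 0.102, 0.0265 and 0.0401 in that order of tissues. On inguinal fat it was 0.0392 and on epididymal fat 0.0846, which correspond to 16.5 and 33.5 background-subtracted units and are under the floor. In the same units it stood at 408.5 on brown fat, 209 on soleus and 191 on gastrocnemius. Spots on brown fat, from 0.761 to 1.00, lay above all spots on soleus, from 0.396 to 0.451, and on gastrocnemius, from 0.405 to 0.500. The muscle spots overlapped each other. Since both white depots were under the floor, their values bound a level and give no order.

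**Figure D1:**
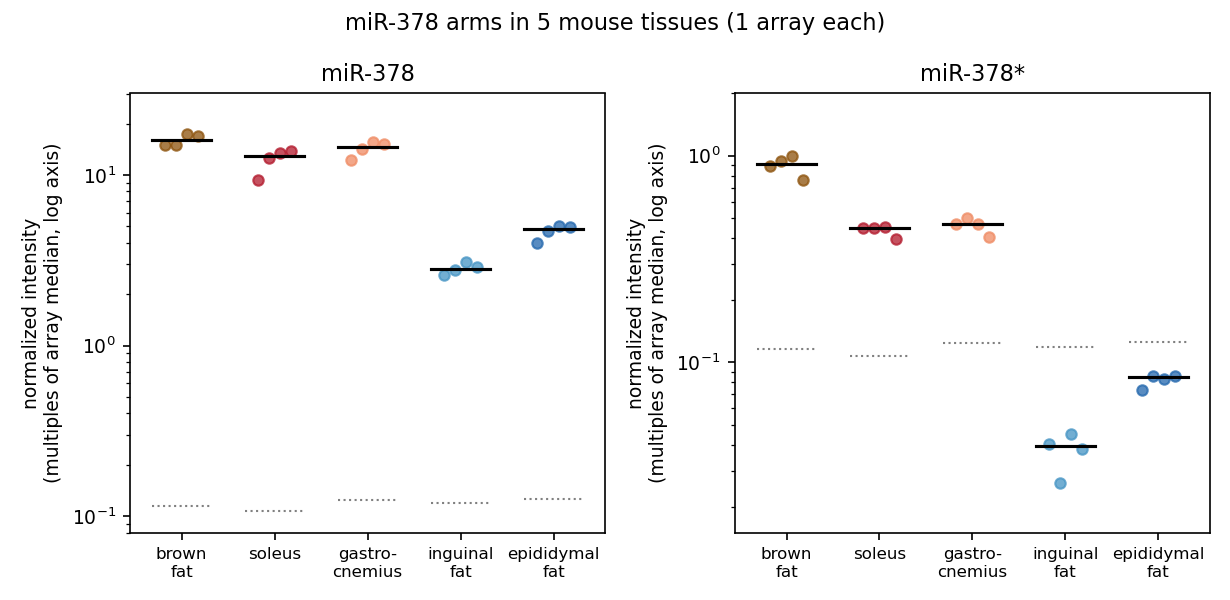
Normalized intensity (log axis, multiples of the array median) of miR-378, left, and miR-378*, right, on the 5 arrays; points are the 4 spots, black bars the deposited value, and grey dotted lines the lowest detected value of each array. miR-378 lies between 12.99 and 15.99 on brown fat and the muscles and at 2.83 and 4.82 on white fat, and miR-378* is below the dotted line on both white depots.

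Brown fat carried more of both arms than either white depot. miR-378 was 5.66-fold higher on brown than on inguinal fat (log2 ratio 2.50, spot SE 0.08) and 3.32-fold higher than on epididymal fat (1.73, SE 0.09). miR-378* was at least 7.71-fold higher on brown than on inguinal fat and at least 7.26-fold higher than on epididymal fat, where a value under the floor was raised to the lowest detected value of its array. Of 190 mouse microRNAs above the floor on at least 1 of these 3 arrays, 15 (7.89%) were at least 2-fold higher and 8 (4.21%) at least 2-fold lower on brown fat than on both white depots. Both arms were among the 15. The ratio of miR-378* is a bound, so it has no rank among the 15. Being under the floor on both white depots, it could only be called higher or not at all.

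The size of these folds leaned on single choices. Without the epididymal array the smallest brown over white fold of miR-378 was 5.66 in place of 3.32, and with spike-in scaling it was 2.47. The bound for miR-378* was 4.31-fold with spike-in scaling, 4.02-fold with normexp background correction and quantile normalization, and 3.23-fold with a floor of 100 units.

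Both muscles also carried more of both arms than either white depot. miR-378 on soleus was 4.59-fold higher than on inguinal fat (log2 ratio 2.20, SE 0.14) and 2.69-fold higher than on epididymal fat (1.43, SE 0.15). On gastrocnemius it was 5.17-fold higher than on inguinal fat (2.37, SE 0.09) and 3.03-fold higher than on epididymal fat (1.60, SE 0.11). miR-378* was at least 3.76-fold and at least 3.54-fold higher on soleus than on inguinal and epididymal fat, and at least 3.94-fold and at least 3.71-fold higher on gastrocnemius. Of 200 microRNAs considered, 22 (11%) were at least 2-fold higher and 17 (8.50%) at least 2-fold lower in each of the 4 muscle over white pairs. Both arms were among the 22. Here too miR-378*, under the floor on both white depots, could only be called higher or not at all. Without the epididymal array the smallest fold of miR-378 was 4.59, and with spike-in scaling it was 2.07. With a floor of 100 units miR-378* came to at least 1.57-fold, no longer past 2-fold. The bound for miR-378* was 2.16-fold with spike-in scaling and 2.06-fold with normexp and quantile normalization.

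**Figure D2:**
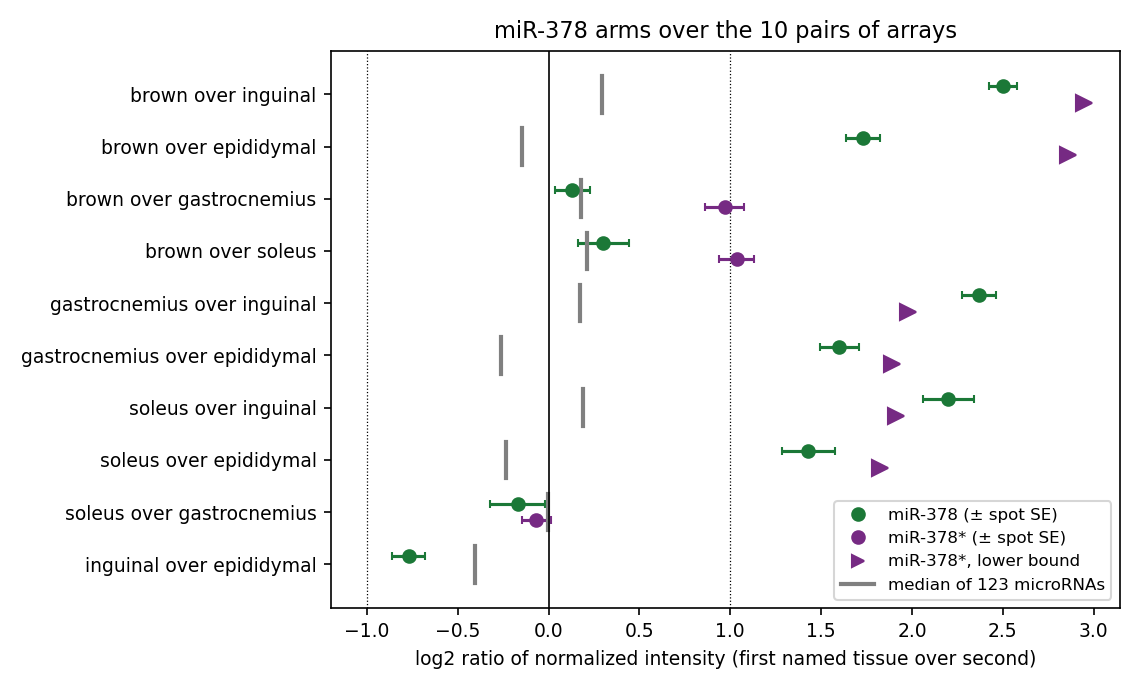
Log2 ratio of normalized intensity for the 10 pairs of arrays, first named tissue over second; circles show measured ratios with the spot SE, arrowheads lower bounds for miR-378*, grey bars the median of the 123 microRNAs detected on every array, and dotted lines 2-fold. Brown fat and both muscles exceed both white depots by more than 2-fold for either arm, and brown fat exceeds the muscles by 0.97 and 1.04 for miR-378* but by 0.13 and 0.30 for miR-378.

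Being higher than white fat in brown fat and in muscle at once was uncommon on these arrays. Brown fat, soleus and gastrocnemius were each set against both white depots, in 6 pairs. Of 207 microRNAs above the floor on at least 1 array, 4 (1.93%) were at least 2-fold lower than on white fat in all 6 pairs. In the other direction, 7 (3.38%) were at least 2-fold higher in all 6 pairs. They were miR-133a, miR-133b, miR-1, miR-378*, miR-805, miR-378 and miR-30e*, in falling order of their smallest fold or bound, which was 13.7 for miR-133a, 12.2 for miR-133b, at least 4.21 for miR-1, at least 3.54 for miR-378*, 3.10 for miR-805, 2.69 for miR-378 and 2.36 for miR-30e*. This grouping was set up after the values had been seen. miR-1 and miR-378*, both under the floor on the 2 white depots, could only be called higher or not at all. The first 3 are myomiRs, microRNAs of striated muscle that promote or restrain muscle differentiation. miR-378 stayed among the 7 or their counterparts under 9 of 9 other settings and without each white or muscle array in turn, and miR-378* in all of these but the floor of 100 units.

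Over the 123 microRNAs detected on every array, brown fat minus the mean of both white depots was 2.11 for miR-378 on the log2 scale, with 3 microRNAs higher and a median of 0.07. The mean of both muscles minus the mean of both white depots was 1.90, with 5 higher and a median of -0.03. The 3 that exceeded miR-378 on the first measure, miR-133a, miR-133b and miR-805, also exceeded it on the second.

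**Figure D3:**
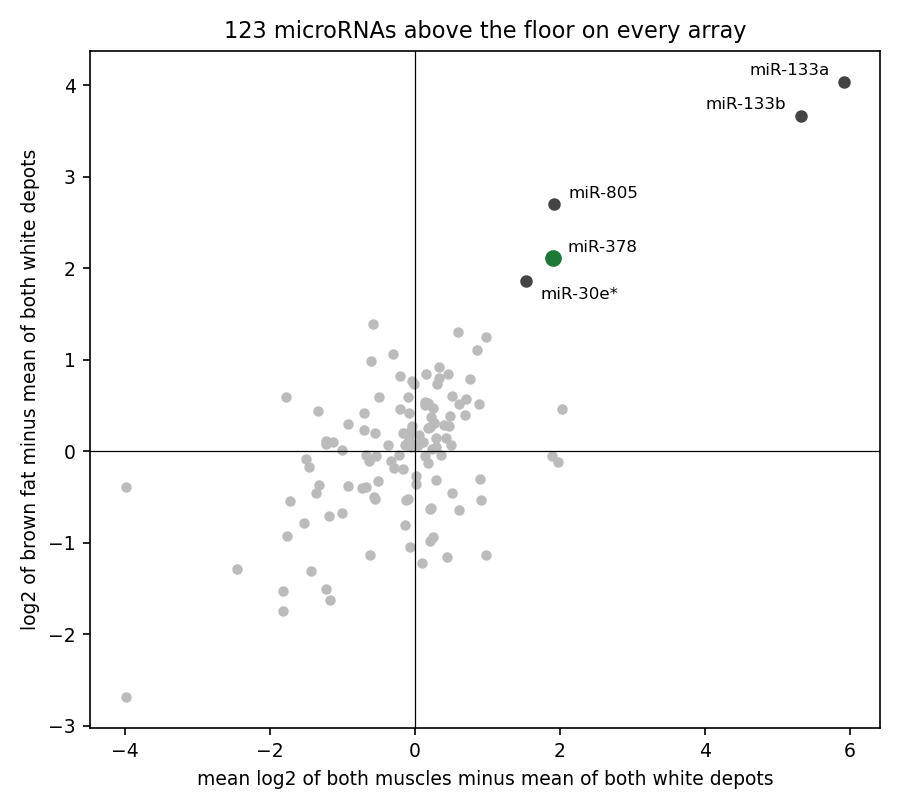
Each point is 1 of the 123 microRNAs detected on every array, with the mean log2 of both muscles minus that of both white depots on the horizontal axis and the log2 of brown fat minus the mean of both white depots on the vertical axis. miR-378 (green) is at 1.90 and 2.11, away from the bulk near the origin, with miR-30e*, miR-805, miR-133b and miR-133a as the other labelled points of that corner.

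Muscle microRNAs were themselves present on the brown fat array, so their values stand beside these ratios. Of the 7 listed muscle markers, 4 were above the floor on brown fat, 7 on soleus, 6 on gastrocnemius, 2 on inguinal fat and 2 on epididymal fat. Their summed normalized intensity was 6.50 on brown fat, 54.7 on soleus, 36.0 on gastrocnemius, 0.491 on inguinal fat and 0.369 on epididymal fat. miR-206, which is made almost only by skeletal muscle, stood at 103 units on brown fat, 5337.5 on soleus and 2989.5 on gastrocnemius. miR-133a*, the star strand of miR-133a, was under the floor on brown fat at 23 units, with 1778 on soleus and 1570 on gastrocnemius. miR-378 was as bright on brown fat as on muscle, whereas the summed muscle markers were lower on brown fat than on either muscle; their part in the brown over white ratios was not tested.

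The other marker lists gave the following levels. Summed leukocyte markers were 5.73 on brown fat, 3.04 on soleus, 3.64 on gastrocnemius, 22.8 on inguinal fat and 10.7 on epididymal fat, with 4, 5, 4, 6 and 4 of 6 markers above the floor. The white depots, low in both arms, were thus highest in this sum. miR-142-3p, miR-142-5p and miR-223 were higher on both white depots than on brown fat and both muscles. On epididymal fat miR-150 was lower than on brown fat, at 0.206 against 0.374, and miR-155 and miR-342-3p were under the floor. The part of the leukocyte markers in the ratios was not tested. Endothelial markers, both arms of miR-126, were highest on brown fat and lowest on inguinal fat, as miR-378 was, and ran from 6.30 on inguinal fat to 13.2 on brown fat, and red cell markers, miR-451 and miR-144, from 4.0 on inguinal fat to 8.31 on brown fat. Epithelial markers were above the floor on epididymal fat alone, with 4 of 5, and miR-429 was at 0 on brown fat and soleus. The summed neural markers were 0.273 on brown fat, 1.31 on soleus, 0.774 on gastrocnemius, 0.147 on inguinal fat and 0.0505 on epididymal fat. miR-128 made most of the muscle sums, at 1.16 on soleus and 0.723 on gastrocnemius. It was under the floor on brown fat, at 24 units, and on inguinal fat, at 27.5. miR-9 was under the floor on every array, and miR-124 on gastrocnemius and both white depots. None of these markers alone split as the arms did. Of the 3, 1 was above the floor on brown fat, 2 on soleus, 1 on gastrocnemius and 0 on the white depots. The part of these lists in the ratios was not tested either, and miR-122, a marker of liver, stayed below the floor throughout.

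Between brown fat and muscle the arms parted. miR-378 was 1.23-fold higher on brown fat than on soleus (log2 ratio 0.30, SE 0.14) and 1.09-fold higher than on gastrocnemius (0.13, SE 0.10). Those ratios lay close to the medians over the 123 microRNAs, 0.21 for brown over soleus and 0.18 for brown over gastrocnemius. miR-378* was 2.05-fold higher on brown fat than on soleus (1.04, SE 0.10) and 1.96-fold higher than on gastrocnemius (0.97, SE 0.11), and so fell just short of 2-fold in 1 of the 2 pairs. In this comparison 19 of 190 microRNAs (10%) were at least 2-fold higher and 25 (13.2%) at least 2-fold lower on brown fat than on both muscles. Neither arm was among them. With scaling by the 75th percentile of all mouse probes the smallest fold of miR-378* was 2.20, past the limit, and by that of the probes detected on every array it was 1.52.

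Spots printed in the same block of each array gave the same picture. Over the 4 blocks the log2 ratio of brown fat over gastrocnemius averaged 0.17 ± 0.08 for miR-378 and 0.96 ± 0.09 for miR-378* (SD, n = 4 spots). Over soleus it averaged 0.40 ± 0.19 for miR-378 and 1.04 ± 0.09 for miR-378* (SD, n = 4 spots). All 4 blocks were positive in each of these pairs.

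Between the 2 muscles miR-378 differed by little more than the spot error and miR-378* by less than it. miR-378 on soleus was 1.13-fold lower than on gastrocnemius (log2 ratio -0.17, SE 0.15) and miR-378* 1.05-fold lower (-0.068, SE 0.08). Within the same blocks the log2 ratio averaged -0.22 ± 0.12 for miR-378 and -0.080 ± 0.061 for miR-378* (SD, n = 4 spots). Every block was below 0 for either arm. The sign turned with no scaling, for miR-378 and miR-378* alike, and also with spike-in scaling and with normexp and quantile normalization for miR-378*. Among 176 microRNAs, 5 (2.84%) were at least 2-fold higher and 4 (2.27%) at least 2-fold lower on soleus.

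Inguinal fat carried less miR-378 than epididymal fat on these arrays. The ratio was 1.71-fold lower on inguinal fat (log2 ratio -0.77, SE 0.09), and the median over the 123 microRNAs was lower as well, at -0.41. With normexp and quantile normalization the fold came to 1.05. Here 10 of 172 microRNAs (5.81%) were at least 2-fold higher and 20 (11.6%) at least 2-fold lower on inguinal fat. miR-378* was under the floor on both depots and has no fold.

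The signal of miR-378* relative to miR-378 was highest on brown fat. Different probes bind with different strength, so the ratio on 1 array does not give the proportion of the arms as molecules. Its change from array to array is free of any single scaling factor. That change is free of the probes' own brightness only if both probes respond in proportion to their targets, which was not tested. Products of the other hairpins of the family, if the miR-378 probe captures them, would also enter the ratio. The log2 ratio of miR-378* over miR-378 was -4.12 on brown fat (spot SE 0.10), -4.86 on soleus (SE 0.14) and -4.96 on gastrocnemius (SE 0.10). As a share of signal, miR-378* came to 5.73% of miR-378 on brown fat, 3.44% on soleus and 3.21% on gastrocnemius. On white fat only an upper bound can be given, 4.21% on inguinal fat and 2.62% on epididymal fat. The arm ratio on brown fat was thus 1.67 times that on soleus and 1.79 times that on gastrocnemius (log2 differences 0.74, SE 0.17, and 0.84, SE 0.14), at least 1.36 times that on inguinal fat and at least 2.19 times that on epididymal fat. Between the muscles it differed by 0.10 (SE 0.17), within the spot error.

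Other hairpins with both arms on the array show how far such a ratio can move. The array names 161 pairs of arms, of which 16 had both arms above the floor on at least 2 arrays. Over the arrays where both arms were measured, the contrast of miR-378, highest minus lowest log2 arm ratio, was 0.84, and the median over the other 15 pairs was 0.91. The largest contrasts were 2.39 for miR-142-3p with miR-142-5p, 2.34 for miR-503 with miR-503* and 1.63 for miR-22 with miR-22*. The smallest were 0.15 for let-7b with let-7b*, 0.19 for miR-133a with miR-133a* and 0.29 for miR-140 with miR-140*, the first 2 of these measured on 2 arrays only. The 0.84 of miR-378 covers 3 arrays, since both white depots gave only a bound, while most other pairs were measured on 4 or 5, so the contrasts are not ranked against each other. With epididymal fat at its bound the difference of miR-378 was at least 1.13. On the same arrays, the difference between brown fat and soleus ranked 3 of 13 pairs by size, and that between brown fat and gastrocnemius 4 of 12.

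Its direction was less common. Of 11 other pairs measured on brown fat and both muscles, 1 had a higher star or 5p share on brown fat than on both muscles, miR-126-3p with miR-126-5p by 0.34 against soleus (SE 0.14) and 0.20 against gastrocnemius (SE 0.20), and 6 had a lower one on brown fat than on both. The largest excess on brown fat among the others was 0.26 against gastrocnemius, for miR-142-5p, and 0.72 against soleus, for miR-503*, beside 0.84 and 0.74 for miR-378*. miR-22*, the star strand of a hairpin abundant in muscle and fat, went the other way, with differences of -1.36 against soleus (SE 0.11) and -1.63 against gastrocnemius (SE 0.09). These pairs were compared after their values had been seen.

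**Figure D4:**
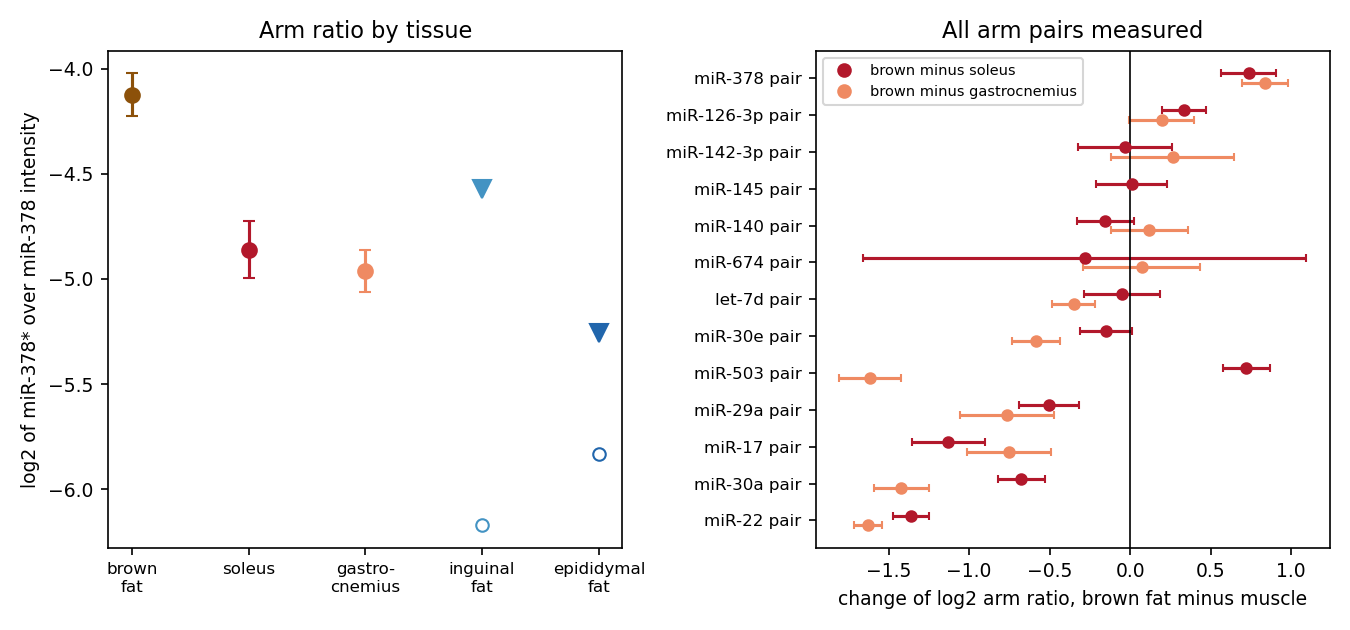
Left, log2 ratio of miR-378* over miR-378 signal by tissue, with the spot SE; triangles are upper bounds where miR-378* was under the floor, and open circles the ratio of the values as deposited. Right, difference of the log2 arm ratio (brown minus soleus, brown minus gastrocnemius) for every hairpin measured on both arrays, with the spot SE; the miR-378 pair is at 0.74 and 0.84, at the upper end.

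The microRNA whose profile lay nearest to that of miR-378 was miR-30e*, and the nearest to miR-378* was miR-805. Likeness was the root mean square difference between log2 profiles over the 5 arrays, each centred on its own mean. miR-30e* differed from miR-378 by 0.23, against a median of 1.05 over 122 candidates detected on every array. It stood at 1.93 on brown fat, 1.38 on soleus, 1.71 on gastrocnemius, 0.480 on inguinal fat and 0.585 on epididymal fat. Next came miR-805 at 0.39, miR-487b at 0.50, miR-290-5p at 0.52, miR-503* at 0.62, miR-433* at 0.64, miR-494 at 0.66 and miR-30e at 0.67. Of these, miR-433* and miR-494 were dim, with at most 135 units for miR-433* and 107 for miR-494, and miR-290-5p reached 171.5. With a floor of 100 units 4 of the 8 profiles nearest to miR-378 were shared, and without the brown fat array also 4.

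For miR-378*, over 206 candidates with values under the floor raised to it, miR-805 differed by 0.16 and miR-378 itself by 0.38, followed by miR-30e* at 0.39, miR-193b at 0.67 and miR-30e at 0.70, with a median of 1.23. miR-805 stood at 6.41 on brown fat, 3.31 on soleus, 4.24 on gastrocnemius, 1.07 on inguinal fat and 0.913 on epididymal fat. It is an early database entry whose sequence has been assigned to the mitochondrial genome, and it is no longer widely counted as a microRNA. Without the brown fat array the order changed: miR-22* was then nearest to miR-378, and miR-378 ranked 6 for miR-378*. The nearness of miR-805 to miR-378* rests on 2 of 5 values raised to the floor. With a floor of 100 units miR-30e was nearest to miR-378*, miR-805 ranked 26 and miR-378 ranked 19, and 2 of the 5 nearest profiles were shared.

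**Figure D5:**
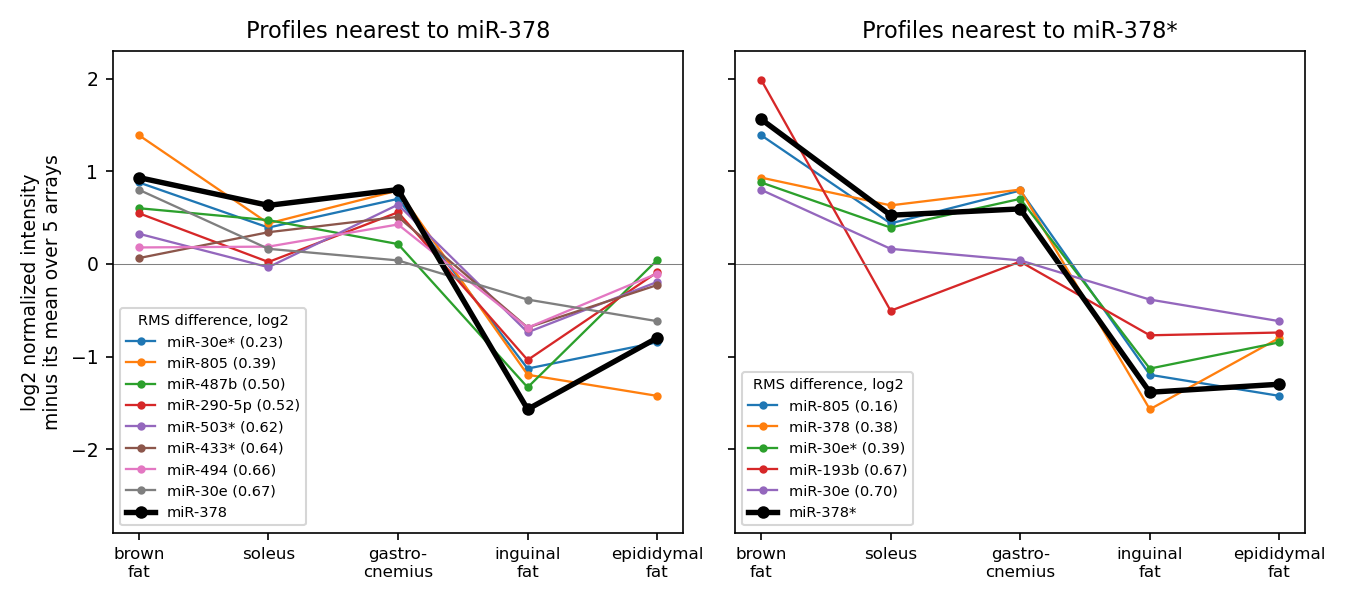
Log2 normalized intensity over the 5 arrays, centred on its own mean, for miR-378 with its 8 nearest profiles (left) and miR-378* with its 5 nearest (right); numbers in the legends are root mean square differences. miR-30e* follows miR-378 at 0.23 and miR-805 follows miR-378* at 0.16, while miR-193b is high on brown fat alone.

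Some other microRNAs linked to brown adipocytes were higher on brown fat, on a list chosen with earlier results of these data known. Of 20 names on that list, which leaves out the miR-378 arms, 16 were on the array. Of the 14 above the floor on brown or white fat, 5 were at least 2-fold higher on brown fat than on both white depots and 0 lower, beside 7.89% higher and 4.21% lower over all microRNAs: miR-193b by at least 6.63-fold, miR-455 by 3.9-fold, miR-203 by 2.34-fold, and miR-182 and miR-129-3p by at least 4.69-fold and 2.03-fold. miR-182 and miR-129-3p were detected on brown fat alone, so they could only be called higher there, against white fat and muscle alike. miR-193b, under the floor on epididymal fat, could not be called lower on brown than on white fat. Of the 11 above the floor on muscle or white fat, 0 were at least 2-fold higher in muscle than in white fat and 2 lower, miR-203 and miR-32, beside 11% and 8.50% over all. Of 14 compared between brown fat and muscle, 6 were at least 2-fold higher on brown fat, including miR-203 at least 13.7-fold and miR-455 at least 8.09-fold, and 1 lower, miR-196a, beside 10% and 13.2% over all. miR-455 was under the floor on both muscles and miR-203 on gastrocnemius, so neither could be called higher in muscle than in brown or white fat. miR-196a, under the floor on brown fat, could not be called higher there than in muscle. Over members on one side in every pair, with bounds entered at their value, the median of the smallest log2 ratio was 1.02 for brown over white (9 members), beside 0.16 over all 100 such microRNAs, 0.98 for brown over muscle (12 members), beside 0.13 over 153, and 0.01 for muscle over white (6 members), beside 0.07 over 99. The 1.02 is the bound of miR-129-3p, set by the floor, and a bound of miR-129-3p also enters the 0.98.

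Reported repressors of brown adipocyte formation or of the PGC-1 genes went both ways. The list shares miR-133a and miR-133b with the muscle markers and miR-155 with the leukocyte markers. Of 13 names 12 were on the array, and of 11 above the floor 2 were at least 2-fold higher on brown than on white fat, miR-133a 13.7-fold and miR-133b 12.2-fold, and 0 lower, beside 7.89% and 4.21% over all microRNAs. In muscle against white fat 3 of 11 were higher, miR-133a, miR-133b and miR-27b, and 3 lower, miR-34a, miR-106b and miR-93, beside 11% and 8.50% over all. miR-27b, under the floor on both white depots, could not have been called lower in muscle. Against muscle, brown fat had 1 of 11 higher, miR-93, and 2 lower, miR-133a and miR-133b, beside 10% and 13.2% over all. The medians, taken the same way over 7, 8 and 8 members, were 0.47 for brown over white, 0.07 for muscle over white and -0.34 for brown over muscle, beside 0.16, 0.07 and 0.13 over all microRNAs.

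A further list held microRNAs that lie within other protein-coding genes, some of them muscle or metabolic genes and others not, such as miR-128 in R3hdm1 and Arpp21, the miR-126 arms in Egfl7 and miR-342-3p in Evl. All 16 names were on the array. Their counts of calls are small and are set beside the share over all microRNAs. The list shares miR-208b and miR-499 with the muscle markers, both miR-126 arms with the endothelial, miR-342-3p with the leukocyte and miR-128 with the neural markers. Of 10 above the floor on brown or white fat, 1 was at least 2-fold higher on brown fat than on both white depots, miR-107 at 2.55-fold, which lies in Pank1, a gene of coenzyme A synthesis, and 0 were lower, beside 7.89% and 4.21% over all. Of 14 compared between muscle and white fat, 3 were higher in muscle and 1 lower: miR-128 at least 5.73-fold, miR-208b of the slow myosin gene Myh7 at least 4.65-fold and miR-486 of Ank1 at least 2.95-fold higher, and miR-103 of the Pank genes 2.06-fold lower. Over all microRNAs these shares were 11% and 8.50%. The 3 called higher were under the floor on both white depots, so they could not have been called lower in muscle. Brown fat against muscle had 2 of 13 higher, miR-103 and miR-107, and 4 lower, miR-208b, miR-128, miR-486 and miR-335-5p, beside 10% and 13.2% over all. Of these, miR-208b and miR-128 were under the floor on brown fat and could not have been called higher there. The medians, over 6, 6 and 11 members, were 0.22 for brown over white, 0.92 for muscle over white and -0.19 for brown over muscle, beside the same 0.16, 0.07 and 0.13. The 0.92 lies between the bounds of miR-149 and miR-486, both set by the floor. miR-128, miR-208b, miR-486 and miR-149 were under the floor on both white depots, so their values could only be positive.

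Across the 5 arrays between 148 and 170 of the 598 mouse probes were above the floor, and empty positions reached at most 2.5 units. Spot SDs of detected probes had a median of 0.15 on the log2 scale, and those of miR-378 ran from 0.11 to 0.26. The brightest miR-378 spot had a foreground of 7757 units and that of miR-378* 481. The brightest mouse microRNA spot had 10883 and the brightest spot of any kind 21353, so neither arm stood at the top of the measured range. Whether the miR-378 signal levels off below that top was not tested.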

How the data were processed

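One-colour arrays of 5 tissues were used, 1 each. The authors deposited, per the file headers, the foreground and background-subtracted intensity of each spot and, per probe, the median of 4 spots. Per the file headers, the authors' normalized intensity is a ratio to the array's median over microRNAs above 50 units in all samples. The largest gap to the series' value table was 5e-09. The sources used here name neither scanner nor software.

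The normalized intensities were the main values (Python 3.11.15, pandas 2.3.3). A probe at or above 50 units was detected. Under the floor, a value was raised to the higher of itself and the array's lowest detected value, and its ratio is a bound. A microRNA counted as different when at least 2-fold apart in every pair of arrays. Spot SEs combine the log2 SDs of both arrays' spots. The alternatives were 5 scalings, normexp with offset 50 and quantile normalization (limma 3.58.1, R 4.3.3), spot means, a floor of 100 and values under the floor as deposited. Calling was tested on simulated data. Named microRNAs were the arms, the 8 and 5 nearest profiles, the listed microRNAs and the 3 arm pairs with the largest and smallest contrasts. Members and lists were chosen with earlier results of these data known.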

Additional observations from a re-analysis of the deposited data

How the results depend on the processing

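No paired analysis was possible because a single array stood for every tissue. A value counted as moved when it changed by more than 1 SD of its spots, and the cause was not tested except where the setting itself lowers or raises a bound. All values here are log2 ratios. Spike-in scaling set the median of the 123 microRNAs at -0.55 for brown over inguinal fat, in place of 0.29. With it, brown over white came to 1.30 for miR-378 and 2.11 for miR-378*, muscle over white to 1.05 and 1.11, and inguinal over epididymal to -0.36 for miR-378. Scaling by the 75th percentile of probes detected on every array gave 2.48 for brown over white and 0.61 for brown over muscle of miR-378*, 1.75 and 1.69 for muscle over white of miR-378 and miR-378*, and -0.22 for inguinal over epididymal of miR-378. With the 75th percentile of all mouse probes, muscle over white of miR-378* was 1.56 and inguinal over epididymal of miR-378 -0.48. Normexp and quantile normalization gave 2.01 and 1.04 for brown over white and muscle over white of miR-378*, -0.068 for inguinal over epididymal of miR-378 and 0.10 for soleus over gastrocnemius of miR-378*. With no scaling these were 3.03 and 1.93, and 0.13 for soleus over gastrocnemius. A floor of 100 lowered the bounds of miR-378* to 1.69 and 0.65, and values under the floor as deposited raised them to 3.44 and 2.40 and the arm contrast to 2.05. Without 1 array, miR-378 ran from 1.73 to 2.50 for brown over white, from 1.43 to 2.20 for muscle over white and from 0.13 to 0.30 for brown over muscle, and miR-378* from 2.86 to 2.95, from 1.82 to 1.91 and from 0.97 to 1.04. The count of microRNAs higher on brown fat and muscle than on white fat, 7, ran from 5 to 9 over the settings and from 7 to 10 without 1 array, alternatives chosen after seeing the data. With spike-in scaling miR-805 and miR-30e* were not among its 5.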

Other observations

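The 4 spots of miR-378 were not equally bright, and the same printing block was lowest on all 5 arrays. On soleus the spot of that block read 4395 background-subtracted units, and the other blocks 5883, 6266 and 6497. On brown fat it read 6646, with 6686, 7721 and 7567 in the others. Ratios taken within a block vary less than the spot SDs of single arrays would give: for brown over inguinal fat the log2 ratio of miR-378 ran from 2.44 to 2.56 over the 4 blocks.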
